A study of Caenorhabditis elegans with 12 samples.

Results

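The comparison set the 6 libraries numbered replicate 1 or 3 against the 6 numbered replicate 2 or 4, and so used all 12 of the 12 libraries of the study. Polyadenylated RNA was sequenced from Caenorhabditis elegans larvae arrested in the first stage (L1). Their parents had grown for 72 h on HT115 bacteria carrying an empty vector, daf-2 RNAi or pitr-1 RNAi, and each of these 3 groups holds 4 libraries that the labels call biological replicates. Every animal in every group, controls included, carried hrde-1(tm1200), so no group has the wild-type form of hrde-1, a nuclear Argonaute that passes small-RNA silencing to later generations. The embryos were released by bleach, hatched without food and were frozen about 24 h after that bleach. The labels give no date or other meaning to a replicate number, and nothing in them sets replicates 1 and 3 apart. The pairing of the numbers was chosen by the measured expression itself, which separated the libraries that way along its main axis. The sizes of the difference are therefore a description of these 12 libraries, and no test is given for them.

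An L1 larva that hatches without food stops development and can stay alive for weeks, with its blast cells held back from dividing. It carries a working pharynx (the feeding pump), body wall muscle, a nervous system, an intestine and the cuticle that the embryo made. Whole-animal RNA of such larvae mixes all of these tissues, so fewer cells of a type and less RNA per cell cannot be told apart in any value here. Most mitochondrial proteins are encoded in the nucleus, while a few subunits of the respiratory chain are encoded on the mitochondrial chromosome itself and are transcribed there.

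Gene counts per library ran from 5907286 to 11490429. Ribosomal RNA genes took 18.9% to 47.1% of gene counts in replicates 1 and 3 and 16.1% to 28.4% in replicates 2 and 4, ranges that overlap. Reads that fell on more than 1 gene made up 6.63% to 8.45% of all reads in replicates 1 and 3 and 4.59% to 6.05% in replicates 2 and 4. Reads outside any gene made up 1.71% to 2.67% against 3.21% to 4.60%, and a count was found for 17415 to 20598 genes against 21559 to 24329. The groups did not overlap in these 3 properties, and the part of these in the differences that follow was not tested. Reads that did not align took 16.3% to 39.8% of reads in replicates 1 and 3 and 16.7% to 18.6% in replicates 2 and 4. Yolk protein genes, which adult intestine transcribes, summed to 2.01 to 14.1 CPM (counts scaled to the size of the library) over all 12 libraries, near the bottom of the measured range.

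The first principal component of 9894 genes held 51.8% of the variance between libraries, and 76.9% of that component lay between the 2 pairs of replicate numbers against 0.632% between the RNAi groups. The 6 libraries of replicates 2 and 4 stood close together at 21.5 to 35.9 on it. The libraries of replicates 1 and 3 were spread from -64.3 for pitr-1 RNAi replicate 1 to -1.37 for daf-2 RNAi replicate 3. The replicate 3 libraries of daf-2 and pitr-1 RNAi thus lay between the groups, and empty vector replicate 3, at -38.6, did not. Replicates 1 and 3 are for this reason not a uniform class.

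**Figure D1:**
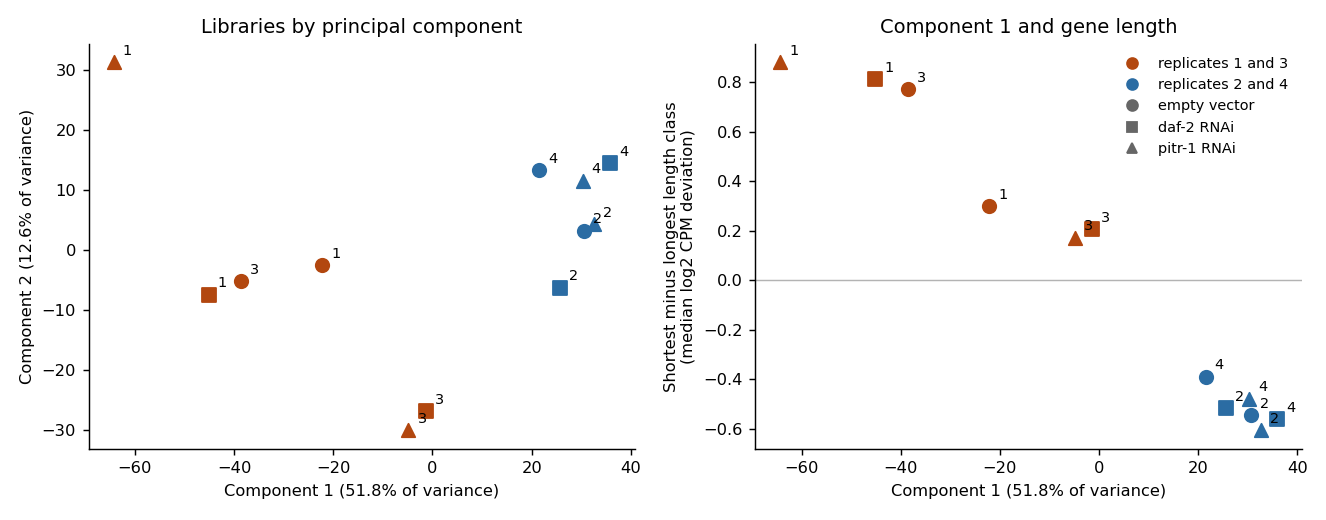
Each point is 1 library (color, pair of replicate numbers; shape, RNAi group; digit, replicate number). The left panel plots the first 2 principal components of log2 CPM, and the right panel plots component 1 against the median log2 CPM deviation of the shortest of 5 length classes of genes minus that of the longest. The 6 libraries of replicates 2 and 4 lie at 21.5 to 35.9 on component 1 with a negative length difference, and the 6 of replicates 1 and 3 lie at or below -1.37 with a positive one.

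A gene was called apart when it differed at least 2-fold and its 6 values in replicates 1 and 3 did not overlap its 6 values in replicates 2 and 4. Of 14664 genes tested, 435 (2.97%) were apart and higher in replicates 1 and 3, and 386 (2.63%) were apart and lower; the libraries were paired on this same contrast, so nothing is read from these shares. Without the 2-fold limit, 7.84% of genes were higher and 8.1% lower without overlap. With the replicate 3 libraries of daf-2 and pitr-1 RNAi left out, the counts at 2-fold were 932 higher and 948 lower, and without daf-2 RNAi replicate 3 alone 585 were lower. Fewer libraries on a side also make it easier for values not to overlap. Fold changes are log2 values from edgeR with the RNAi group as a covariate, positive when replicates 1 and 3 were higher, and the median over all genes was -0.02.

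The mitochondrially encoded genes differed most among 57 lists of genes by tissue or process. All 8 that passed the filter on low counts, of 12 protein-coding genes on the mitochondrial chromosome, were apart and higher in replicates 1 and 3. Their log2 fold changes ran from 2.75 to 3.55, with a median of 3.1. ctc-3, a cytochrome c oxidase subunit, had 7561, 13172 and 18462 CPM as the lowest, median and highest of replicates 1 and 3, and 1130, 1498 and 2102 CPM in replicates 2 and 4. ctb-1, cytochrome b of complex III, had 7123, 10098 and 13771 CPM against 1123, 1491 and 2219 CPM. nduo-1, a subunit of complex I, had 4242, 5776 and 8188 CPM against 511, 664 and 1028 CPM. In each of the 3 genes the lowest library of replicates 1 and 3 was above the highest of replicates 2 and 4 by a wide margin. nduo-3, another complex I subunit, had the largest fold, with 206, 333 and 731 CPM against 27.9, 32.4 and 37.5 CPM (log2 fold change 3.55).

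The 8 genes summed to 26631 to 55984 CPM in replicates 1 and 3 and 3733 to 7243 CPM in replicates 2 and 4. As a share of gene counts without ribosomal RNA, mitochondrial protein-coding genes took 3.90% to 6.50% in replicates 1 and 3 and 0.585% to 1.13% in replicates 2 and 4. The replicate 3 libraries of daf-2 and pitr-1 RNAi, which lay between the groups on the first component, held the lowest shares of replicates 1 and 3 here, at 3.90% and 4.66%, yet stood far above the highest share of replicates 2 and 4. For ctc-2, a second cytochrome c oxidase subunit, the log2 difference was 3.00 within empty vector, 2.88 within daf-2 RNAi and 3.33 within pitr-1 RNAi.

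**Figure D2:**
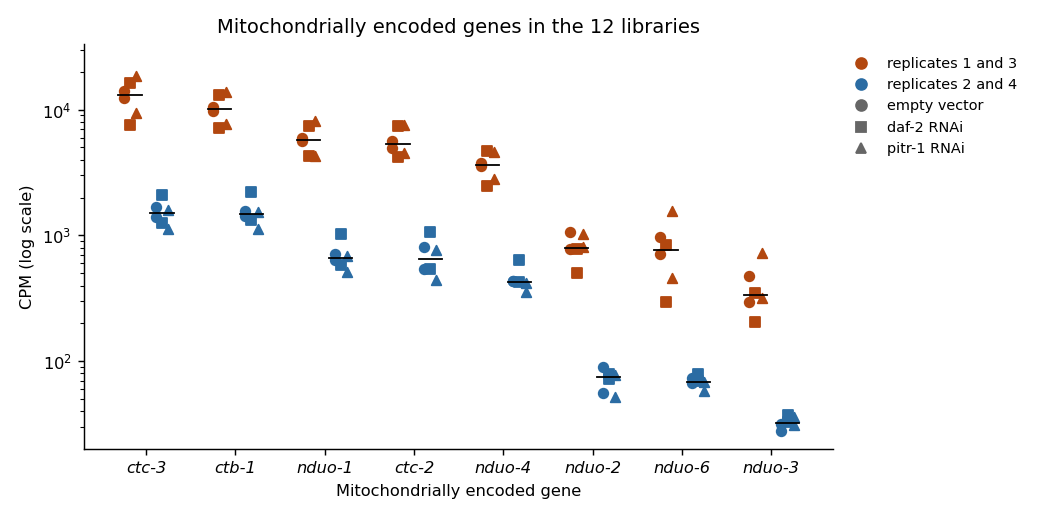
CPM on a log scale of the 8 measured mitochondrially encoded genes, 1 point per library (color, pair of replicate numbers; shape, RNAi group), with black lines at the medians of 6 libraries. No point of replicates 2 and 4 reaches the lowest point of replicates 1 and 3 in any of the 8 genes, and ctc-3 is at 7561 to 18462 CPM against 1130 to 2102 CPM.

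Nuclear genes of the respiratory chain, with complex II and assembly factors included, did not follow the mitochondrial ones. Of 62 measured, 45 had a log2 fold change above 0, the median was 0.35, and 5 (8.06%) were apart and higher, with 2.97% of all genes. The length-adjusted median defined below was 0.01. asg-1, a small subunit of the ATP synthase, had 73.8, 105 and 158 CPM against 40.9, 44.7 and 54.1 CPM (log2 fold change 1.17). nuo-6, a complex I subunit, had 157, 214 and 281 CPM against 87.2, 98.3 and 117 CPM (1.14). The large catalytic subunits went the other way. atp-2, the beta subunit of the ATP synthase, had 783, 955 and 1058 CPM against 1378, 1452 and 1664 CPM, without overlap (-0.65). sdha-1, the flavoprotein of complex II, had 27.1, 37.6 and 40.9 CPM against 52.6, 62.6 and 66.0 CPM (-0.75). Subunits of 1 complex thus stood on opposite sides, the short genes higher and the long genes lower in replicates 1 and 3.

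The direction of a gene tended to follow the total length of its exons, though not in every gene or list. Among 14476 genes with an exon length in the Ensembl annotation, split by length into 5 classes of equal size, the median log2 fold change fell from 0.62 for genes of up to 821 bases through 0.18, -0.01 and -0.17 to -0.46 for genes of 2309 bases and more. Of the genes apart and higher, 348 were in the shortest class and 1 in the longest; of those apart and lower, 21 were in the shortest and 203 in the longest. Across genes, which are not independent, Spearman's rho between log2 fold change and exon length was -0.56. The median deviation of the shortest class minus that of the longest was positive in all 6 libraries of replicates 1 and 3, at 0.17 to 0.88 (log2), and negative in all 6 of replicates 2 and 4, at -0.61 to -0.39. It was smallest among replicates 1 and 3 in the replicate 3 libraries of pitr-1 RNAi (0.17) and daf-2 RNAi (0.21).

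**Figure D3:**
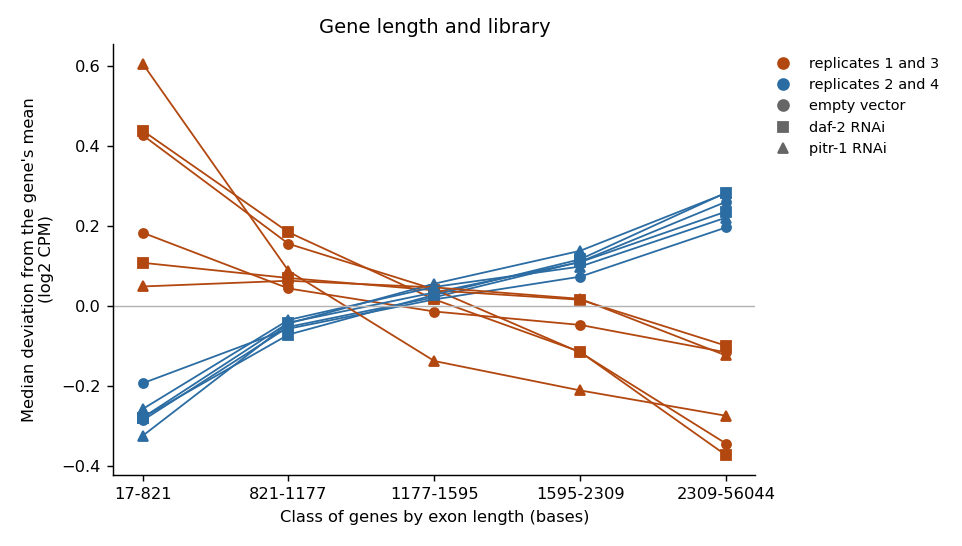
For each of the 12 libraries (lines; color, pair of replicate numbers; shape, RNAi group), the median over genes of the log2 CPM deviation from the gene's mean over libraries, by class of exon length in bases. All 6 lines of replicates 1 and 3 go down from short to long genes, and all 6 of replicates 2 and 4 go up; the median log2 fold change between them goes from 0.62 to -0.46.

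Because tissue and process lists differ in gene length, list medians are given below also after each library's length trend was subtracted, an alternative chosen after the trend had been seen. It removes the median trend across 20 length bins, whatever its source, but no trend inside a bin. The muscle genes ttn-1 (56044 bases) and unc-54 (6204 bases) thus shifted alike, from -1.65 to -1.03 and from -1.13 to -0.50. Whether length itself or the biology of short and long genes sets the trend was not tested. With length taken out, 107 genes were apart and higher and 240 lower, of which 78 and 176 were also apart before. The first component then held 39.3% of the variance, with 68.6% of it between the pairs of replicate numbers. Of the 57 lists, 12 had a median log2 fold change of at least 0.25 and 13 of -0.25 or less; 3 and 4 of these, respectively, were still past that size with length taken out.

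Lists of short secreted peptides and small secreted proteins were the highest nuclear-encoded lists. All 30 measured FMRFamide-like neuropeptide genes were above 0 (median 0.68), as were 76 of 79 other neuropeptide (nlp) genes (median 0.77). In these lists 3 (10%) and 11 (13.9%) genes were apart and higher, near the 12% of all genes in the shortest length class. Among all 7239 genes no longer than 1368 bases, the median exon length, 5025 were above 0. flp-15 had 183, 375 and 775 CPM in replicates 1 and 3 against 133, 149 and 182 CPM in replicates 2 and 4 (log2 fold change 1.38). nlp-17 had 101, 162 and 283 CPM against 45.1, 51.4 and 76.7 CPM (1.61). flp-1, expressed in the AVK interneurons, had 431, 575 and 704 CPM against 313, 331 and 420 CPM (0.69). In all 3 genes every library of replicates 1 and 3 was above every library of replicates 2 and 4.

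Of 24 insulin-like peptide genes, 21 were above 0, with a median of 0.76 and none apart. ins-1, which is expressed in many neurons, had 79.8, 132 and 183 CPM against 59.2, 66.2 and 77.1 CPM (0.95). With length taken out the medians of the 3 peptide lists were 0.13, 0.13 and 0.01, and none of their genes was apart.

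The enzymes that mature neuropeptides were not higher. egl-3, the proprotein convertase that cuts neuropeptide precursors, had 281, 350 and 549 CPM against 603, 739 and 772 CPM, without overlap and just under a 2-fold difference (log2 fold change -1.0). egl-21, the carboxypeptidase that trims the cut peptides, had 478, 688 and 991 CPM against 767, 883 and 917 CPM, with overlap (-0.33). Both are longer than the peptide genes, at 2565 and 1696 bases against a median of 645 bases for the FMRFamide-like genes.

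Transthyretin-like genes, which encode small secreted proteins, were above 0 in 47 of 47 (median 0.82), and 5 (10.6%) were apart and higher. Among them, ttr-34 had 28.1, 54 and 80.7 CPM against 15.7, 19.5 and 25 CPM. Genes for lysozymes, saposin-like proteins and antimicrobial peptides were above 0 in 54 of 58 (median 0.87), and 6 (10.3%) were apart and higher. Both shares were near the 12% of all genes in the shortest length class. The antimicrobial-peptide gene cnc-8 had 34.8, 55.1 and 171 CPM against 10.3, 15.6 and 26.5 CPM (log2 fold change 2.04), and spp-5, a saposin-like protein of the intestine, had 1200, 1524 and 2011 CPM against 740, 895 and 1063 CPM (0.77). With length taken out these 2 lists had medians of 0.23 and 0.32.

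mtl-2, an intestinal metallothionein, had 32.3, 65.4 and 125.8 CPM against 18.1, 19.4 and 28.7 CPM (1.65), and 0.71 with length taken out. elo-6, a fatty acid elongase that makes branched-chain fatty acids in the intestine, had 35.8, 69.3 and 113 CPM against 17.7, 25.3 and 27.8 CPM (1.64), and 1.46 with length taken out. In elo-5, the other elongase of that route, the groups overlapped, at 9.26, 24.8 and 38.5 CPM against 4.52, 9.38 and 14.3 CPM (1.42). The 22 genes of fatty acid synthesis, desaturation and elongation had a median of 0.26, and 0.28 with length taken out. The 28 intestine genes as a list had a median of -0.09 with 12 above 0, and of 0.20 with 18 above 0 once length was taken out, so its sign changed. 1 of them was apart and higher (3.57%, near the 2.97% of all genes).

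Genes of the ribosome were also short and also split by length. Of 80 ribosomal protein genes, 58 were above 0 (median 0.40) and 6 (7.5%) were apart and higher, under the 12% of the shortest length class. Their sum was 93948 to 144812 CPM against 88467 to 104086 CPM, which overlap. rpl-23 had 2997, 3655 and 4739 CPM against 2114, 2196 and 2616 CPM, without overlap (log2 fold change 0.75). rpl-10 had 2783, 3356 and 3915 CPM against 2522, 2649 and 3074 CPM, with overlap (0.27). With length taken out the list's median was -0.23, of the opposite sign. The 39 translation factor genes had a median of 0.14, and 0.12 with length taken out; 22 were above 0, among them 6 of the 22 longer than 1368 bases. 2 long genes of translation had lower values in replicates 1 and 3: eef-2, the elongation factor that moves the ribosome along, had 1299, 2555 and 3237 CPM against 2954, 3372 and 3647 CPM (-0.47, with overlap), and pab-1, the poly(A)-binding protein, 245, 459 and 567.9 CPM against 736, 842 and 960 CPM (-0.91, without overlap). Genes of ribosome biogenesis were below 0 in 25 of 31 (median -0.38, and -0.15 with length taken out). Only 1 was apart and higher (3.23%, near the 2.97% of all genes).

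**Figure D4:**
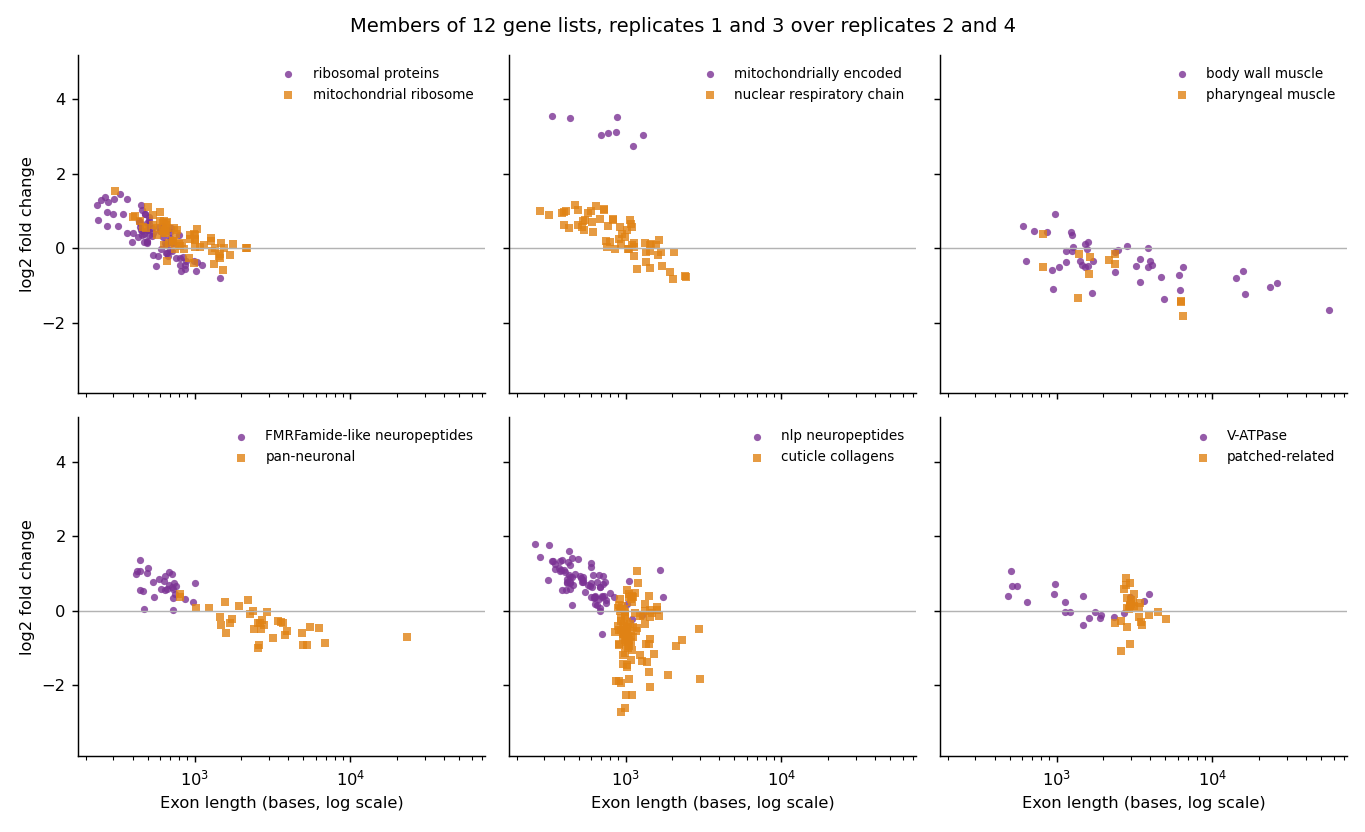
Log2 fold change of replicates 1 and 3 over replicates 2 and 4 against exon length (log scale) for each measured member of 12 gene lists, 2 lists to a panel. Most lists slope down from short to long members, and the 8 mitochondrially encoded genes stand between 2.75 and 3.55 far above nuclear respiratory genes of the same length. Of the 100 collagens 77 lie below 0 and 23 above, and 82 are no longer than the median exon length of all genes.

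Muscle genes of the pharynx and of the body wall were lower in replicates 1 and 3. Of 12 pharyngeal muscle genes, 11 were below 0 (median -0.47) and 4 (33.3%) were apart and lower. Of all genes 2.63% were, and of those in the longest length class 7.01%. myo-1, a myosin heavy chain of the pharynx, had 183, 261 and 364 CPM against 746, 958 and 995 CPM (log2 fold change -1.82). myo-2, the other classical pharyngeal heavy chain, had 156, 200 and 336 CPM against 474, 588 and 677 CPM (-1.44). The groups were far from overlapping in both genes, and myo-1 remained apart with length taken out (-1.19) while myo-2 did not (-0.79). tnc-2, a troponin C of pharyngeal muscle and a short gene of 819 bases, was the 1 gene above 0, at 380, 468 and 529 CPM against 319, 346 and 387 CPM (0.38, with overlap). Length did not split this list: its 3 genes no longer than 1368 bases had a median of -0.50 and its 9 longer ones one of -0.44.

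Of 45 body wall muscle genes, 35 were below 0 (median -0.45) and 7 (15.6%) were apart and lower, with 7.01% of all genes in the longest length class. unc-54, the major myosin heavy chain of body wall muscle, had 717, 828.6 and 1043 CPM against 1622, 1860 and 2218 CPM (-1.13). ttn-1, the titin-like giant of the sarcomere with 56044 bases of exon, had 73.2, 103.3 and 133 CPM against 207, 299 and 506 CPM (-1.65). The light chain genes of the same filaments are shorter. mlc-3 had 1892, 2190 and 3246 CPM against 2104, 2178 and 2525 CPM, with overlap (0.04). mlc-2, whose count is uncertain because mlc-1 is a near-identical copy, had 1542, 1969 and 2209 CPM against 2249, 2444 and 2547 CPM, without overlap (-0.34; -0.81 with length taken out). Of the 31 body wall muscle genes longer than 1368 bases 3 were above 0, and of the 14 shorter ones 7 were. With length taken out the list's median was -0.10, and that of pharyngeal muscle -0.37. The 89 genes of the pharyngeal cuticle and gland had a median of -0.36, and -0.30 with length taken out.

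Genes shared by all neurons were mostly lower, while the genes for peptides that neurons release were higher. Of 36 pan-neuronal genes, 29 were below 0 (median -0.33) and none was apart. snb-1, the synaptobrevin of synaptic vesicles and a short gene of 807 bases, had 326, 361 and 632 CPM against 290, 299 and 360 CPM (0.46, with overlap). unc-44, the neuronal ankyrin, at 22946 bases, had 174, 212 and 252 CPM against 289, 350 and 385 CPM, without overlap (-0.71). The 211 synaptic receptors and ion channels were close to even, with 84 above 0, a median of -0.11 and 0.06 with length taken out; 7 were apart and lower (3.32%, near the 2.63% of all genes). 1 of them was unc-80, a partner of the sodium leak channel, at 32.7, 44.6 and 52.6 CPM against 125.6, 152 and 179 CPM (-1.78; -1.15 with length taken out). The cilium list, part of which was matched by name and may not act in cilia, was below 0 in 52 of 75 (median -0.35). che-10, the rootletin of ciliary rootlets, had 15.7, 20.7 and 43.1 CPM against 58.3, 69.2 and 120 CPM (-1.71). The pan-neuronal median was -0.01 with length taken out, and that of cilia -0.17.

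Cuticle collagens were lower although most of them are short. Of 100 measured, 77 were below 0, with a median of -0.55 and a range down to -2.71. The 4 that were apart and lower (4%, with 2.63% of all genes) all averaged under 1 CPM and so rest on few reads. Without the 2-fold limit these 4 were still the only collagens lower without overlap, where 8.1% of all genes were. The collagens summed to 646 to 2050 CPM against 1403 to 2828 CPM, which overlap. The 82 collagen genes no longer than 1368 bases had a median of -0.54, where all genes of that length had 0.31. With length taken out the collagen median moved to -0.69, the lowest of the 57 lists. Single collagens varied widely between libraries: col-42 had 132, 193 and 509 CPM against 271, 340 and 836 CPM (-0.77), and its highest value in each group was a daf-2 RNAi library. The collagen median was -1.02 for replicate 1 and -0.39 for replicate 3, each against replicates 2 and 4. The 28 patched-related genes, membrane proteins linked to cuticle and molting, departed from length in the other direction. All are longer than 1368 bases, yet 17 were above 0, with a median of 0.10 where all genes of that length had -0.26, and 0.56 with length taken out. ptr-14 had 14.2, 15.8 and 24.5 CPM against 7.57, 10.1 and 14.1 CPM, without overlap (0.75), while 1 other member was lower without overlap. The list's median difference was -0.16 within empty vector, -0.04 within daf-2 RNAi and 0.06 within pitr-1 RNAi. Its genes summed to 804 to 937 CPM against 809 to 943 CPM, which overlap.

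**Figure D5:**
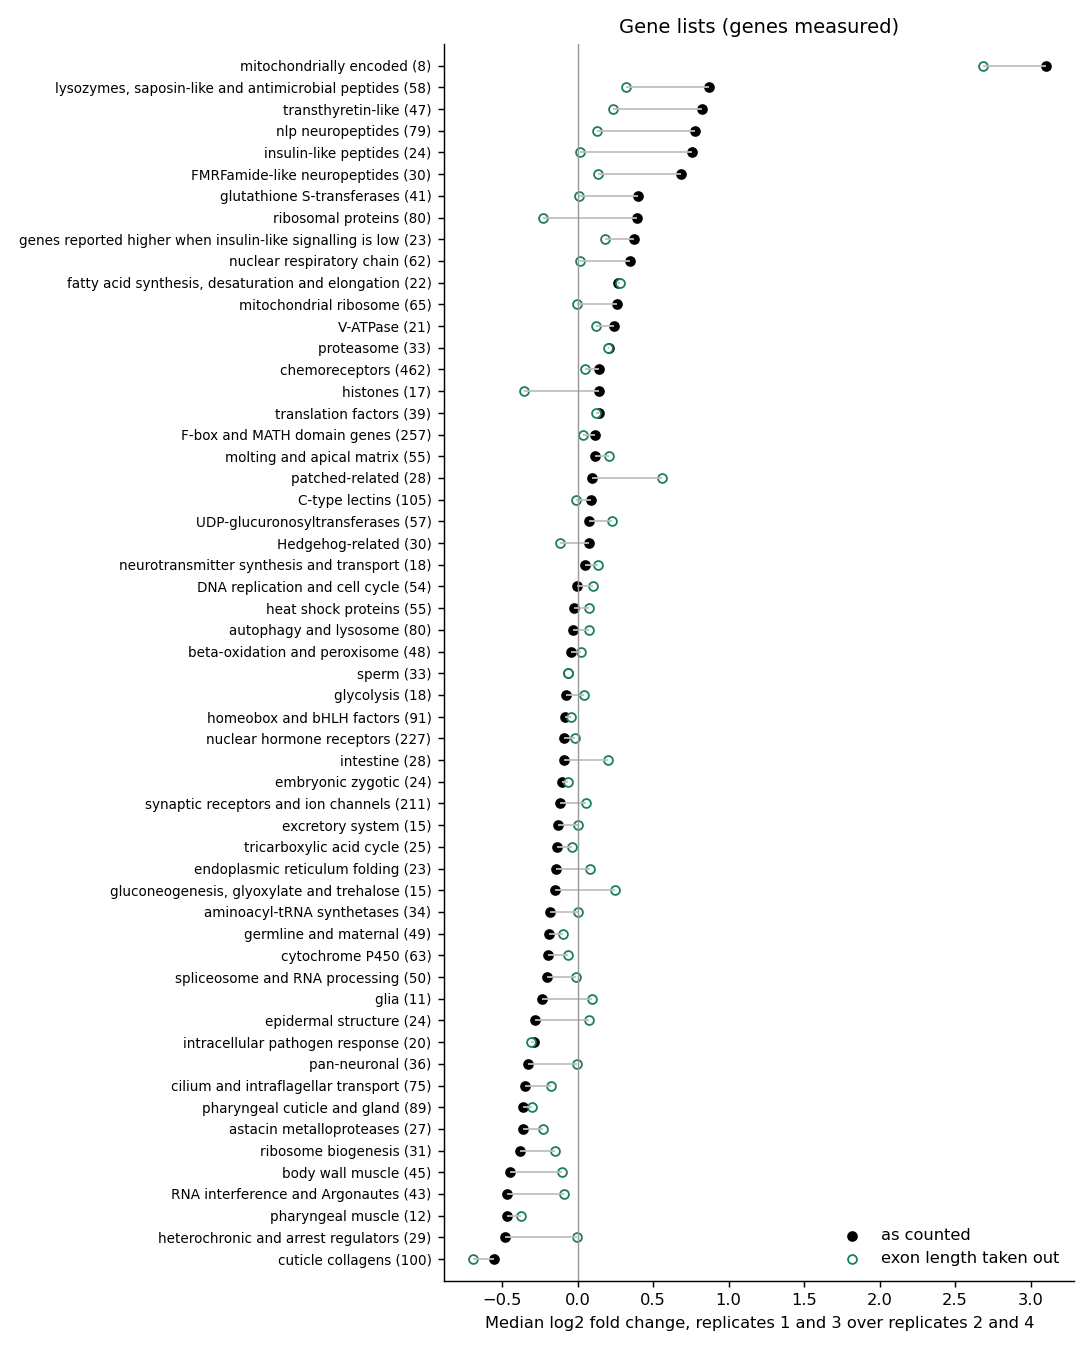
Median log2 fold change of replicates 1 and 3 over replicates 2 and 4 for each list with at least 8 measured genes (number in brackets), as counted (black) and with exon length taken out (open green). The mitochondrially encoded genes are highest in both, at 3.1 and 2.69, the collagens are lowest in both, at -0.55 and -0.69, and the peptide lists move from 0.68 to 0.77 to between 0.01 and 0.13.

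Small nucleolar RNAs, which as a rule carry no poly(A) tail, were higher, as were ribosomal RNA genes, and other non-coding classes were mixed. Of 49 small nucleolar RNA genes, which guide the modification of ribosomal RNA, 48 were above 0, with a median of 2.2 (1.28 with length taken out). Their median exon length was 131 bases, and no length trend inside a bin was taken out. Of these genes 14 (28.6%) were apart and higher and 1 (2.04%) apart and lower, and 5 and 1 with length taken out. Of all genes 2.97% were apart and higher and 2.63% lower, and in the shortest length class 12% and 0.725%. The 49 genes summed to 165 to 1288 CPM against 62.8 to 151 CPM. rpr-1, the RNA of ribonuclease P, had 80.1, 159 and 550 CPM against 21.2, 35.5 and 49.6 CPM (log2 fold change 2.44). tts-1, a long non-coding RNA abundant in dauer and long-lived animals, had 19661, 32787 and 64651 CPM against 12334, 16005 and 19349 CPM (1.24), so its lowest and highest values of the 2 groups almost met. Among 51 other genes annotated as non-coding RNA (ncRNA), rpr-1 and tts-1 included, 27 were above 0 (median 0.13, and -0.11 with length taken out). Of them 10 (19.6%) were apart and higher and 2 (3.92%) apart and lower, but 4 and 9 with length taken out. Of 9 piRNA genes 7 were below 0. Transcripts annotated as pseudogenes were below 0 in 310 of 465 (median -0.33; -0.45 with length taken out).

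The 50 genes of the spliceosome and RNA processing had a median of -0.20 (-0.01 with length taken out), and the 29 heterochronic and arrest regulators one of -0.48 (-0.01 with length taken out). Each list had 1 gene apart in each direction (2% and 3.45% of its genes), near the 2.97% higher and 2.63% lower of all genes. tcer-1, in neither of these lists and the worm counterpart of an elongation and splicing factor, had 18, 28 and 58.9 CPM against 110, 137 and 189 CPM (log2 fold change -2.07; -1.63 with length taken out). uaf-1, the large subunit of the splicing factor U2AF, had 50.4, 96.4 and 114 CPM against 195, 224 and 262 CPM (-1.30; -1.2 with length taken out). Both had every library of replicates 1 and 3 well under every library of replicates 2 and 4. daf-15, the worm Raptor of the TOR complex, had 37.3, 50.2 and 67.7 CPM against 104.2, 114.5 and 138 CPM (-1.21; -0.59 with length taken out). cki-1, the inhibitor of cell division that holds L1 blast cells quiescent, had 43.6, 75.1 and 91.6 CPM against 24.7, 28.9 and 37.2 CPM (1.17; 0.79 with length taken out). Of 43 genes of RNA interference and Argonautes, 37 were below 0 (median -0.47; -0.09 with length taken out), and none was apart.

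Genes of the germline and of DNA replication had small medians over all libraries, but these averaged unlike RNAi groups and unlike levels in replicates 1 and 3. The median of 54 genes of DNA replication and the cell cycle was -0.00 over all libraries, -0.63 for replicate 1 and 0.22 for replicate 3 against replicates 2 and 4. That of 49 germline and maternal genes was -0.19, -0.87 and -0.07. Their length-adjusted medians were 0.10 and -0.10. Within empty vector, daf-2 RNAi and pitr-1 RNAi the DNA replication median was -0.60, -0.08 and 0.20. The germline median was -0.59, -0.26 and -0.19 in the same order. pos-1, whose maternal transcript encodes a regulator of translation, ranged from 4.18 to 87.1 CPM in replicates 1 and 3 and from 4.38 to 68 CPM in replicates 2 and 4.

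The RNAi targets and the mutated gene overlapped between the pairs of numbers. daf-2, the insulin receptor, had 85.1 and 46.4 CPM in empty vector replicates 1 and 3 and 67.0 and 62.0 CPM in replicates 2 and 4. In daf-2 RNAi it had 21.8 and 43.4 CPM in replicates 1 and 3 and 61.0 and 63.4 CPM in replicates 2 and 4, so both daf-2 RNAi libraries were below both empty vector libraries in replicates 1 and 3, while the ranges overlapped in replicates 2 and 4. In pitr-1 RNAi daf-2 had 40.5 and 33.9 CPM in replicates 1 and 3 and 63.5 and 59.5 CPM in replicates 2 and 4. pitr-1 had 321 and 179 CPM in pitr-1 RNAi replicates 1 and 3 and 177 and 168 CPM in replicates 2 and 4, and 247, 209, 181 and 230 CPM in the empty vector replicates 1, 3, 2 and 4. hrde-1 stayed between 1.81 and 4.97 CPM in all 12 libraries.

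Contrasts at right angles to the pairing can be tested. No gene was called for a response to daf-2 RNAi that differed between replicates 1 and 3 and replicates 2 and 4 at a Benjamini-Hochberg adjusted p under 0.05 in edgeR's quasi-likelihood test (0% of 14664 genes in each direction). At an unadjusted p under 0.05 there were 296 genes, of which 170 had a higher response in replicates 1 and 3, and DESeq2 called none. For pitr-1 RNAi edgeR called none either (323 and 210 at an unadjusted p under 0.05; none in DESeq2), but without pitr-1 RNAi replicate 3 it called 5 higher and 1 lower. With 2 libraries in each arm these tests do not show that the responses were alike. hsp-16.49, a small heat shock protein with a near-identical copy that makes its count uncertain, had a log2 difference of 3.28 between the pairs of numbers within daf-2 RNAi and 0.76 within empty vector. The interaction was 2.42 ± 1.2 (SE) and was not called.

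Within the pairs, replicate 3 against replicate 1 gave no call (0%) in edgeR, 1299 higher and 1280 lower at an unadjusted p under 0.05, and 297 higher and 250 lower in DESeq2. Without empty vector replicate 1 it gave 832 higher and 1127 lower in edgeR, and without empty vector replicate 3 it gave 472 and 508. On the first component replicate 3 lay below replicate 1 in empty vector (-38.6 and -22.2). It lay above replicate 1 in daf-2 RNAi (-1.37 and -45.1) and in pitr-1 RNAi (-4.85 and -64.3). The fit takes 1 difference for all RNAi groups, so no call does not show that replicates 1 and 3 were alike. Replicate 4 against replicate 2 gave no call (0%) in edgeR, 264 higher and 334 lower at an unadjusted p under 0.05, and 8 higher and 30 lower in DESeq2; without pitr-1 RNAi replicate 1, edgeR gave 1 higher and 9 lower.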

How the data were processed

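The authors deposited raw read counts per gene for each of 12 libraries (44968 gene entries and 5 summary entries), made with Bowtie 1.2.2 and HTSeq per the submitters' processing notes. No source used here names the genome build or annotation, so no coordinates are printed. Per the labels the kit was non-directional, so overlapping and antisense genes cannot be separated. Gene names came from the authors' deposited table and the Ensembl release 115 annotation, which also gave exon lengths; 525 entries matched no annotated gene. The members and gene lists were chosen with earlier results of these data known.

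Counts were analysed with edgeR 4.0.16 in R 4.3.3: filterByExpr (14664 genes), TMM normalization and robust quasi-likelihood fits. The 5 summary entries were left out of library sizes and tests; the report gives their shares. CPM are TMM-scaled. The difference between replicates 1 and 3 and replicates 2 and 4 was fitted with the RNAi group as a covariate and described without a test; a gene was apart when it differed at least 2-fold and its groups of 6 did not overlap. The RNAi group by pair interaction, replicate 3 against 1 and replicate 4 against 2 (RNAi group as covariate) were tested at an adjusted p under 0.05; p-values measure only the spread between these libraries. For exon length, each library's median deviation in 20 length bins was used as an offset.

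Same-numbered libraries of different RNAi groups correlated at 0.187 to 0.767 in their deviations from group means over 9894 genes, and the numbers were taken to pair the samples. This comes from the data, not the labels. These deviations still hold the difference by which the libraries were split, so the correlations cannot show a pairing by number. With the means of the pairs of numbers removed too, the correlation was -0.212 to 0.588.

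The text names, per list, the 4 most abundant genes and the 2 with the largest difference at 10 CPM or more, the 12 highest and 12 lowest non-overlapping genes at 20 CPM or more, the mitochondrially encoded genes, called genes, and daf-2, pitr-1 and hrde-1; not all of these are printed. Alternatives were DESeq2 1.42.0, its normalization, other filters, thresholds, and leaving libraries out. The scripts were tested on simulated data.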

Additional observations from a re-analysis of the deposited data

Results flagged for a closer look

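Of 114 sets of 6 libraries, the values of a gene or library property in replicates 1 and 3 or in replicates 2 and 4, 12 held a library far from the other 5; chance flags about 1 in 20 such sets. In replicates 1 and 3, pitr-1 RNAi replicate 1 was high in 4 genes. It had 550 CPM for the ribonuclease P RNA rpr-1, where the next library had 206 CPM. For the antimicrobial-peptide gene cnc-8 it had 171 CPM (next 80.7 CPM), for the pharyngeal myosin gene myo-2 it had 336 CPM (next 216 CPM) and for the myosin light chain gene mlc-3 it had 3246 CPM (next 2358 CPM). This library had the fewest gene counts and the most extreme place on the first component. The convertase gene egl-3 stood high in empty vector replicate 1 at 549 CPM (next 363 CPM), and the collagen gene col-42 in daf-2 RNAi replicate 3 at 509 CPM (next 270 CPM).

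In replicates 2 and 4, daf-2 RNAi replicate 2 was low in egl-3 at 603 CPM (next 715 CPM) and in myo-1 at 746 CPM (next 910 CPM), and high in the maternal gene pos-1 at 68 CPM (next 18.9 CPM). Empty vector replicate 4 was high in mlc-3 at 2525 CPM (next 2240 CPM) and in the neuropeptide gene nlp-17 at 76.7 CPM (next 54.5 CPM). daf-2 RNAi replicate 4 was high in col-42 at 836 CPM (next 438 CPM).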

How the results depend on the processing

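Between replicates 1 and 3 and replicates 2 and 4, the 435 higher and 386 lower genes changed by over 1.5 times in at least 1 direction under these settings. A log2 threshold of 0.5 gave 1063 higher and 1014 lower, and one of 2 gave 38 and 30. Replicate 1 alone against replicates 2 and 4 gave 1085 and 1099. Within empty vector there were 716 and 656, and within pitr-1 RNAi 905 and 563. Without replicate 3 of daf-2 and of pitr-1 RNAi there were 932 and 948. Fewer libraries on a side make it easier for values not to overlap, so such counts are not directly comparable with 435 and 386. With exon length taken out, a setting chosen after seeing the data, there were 107 and 240. Leaving out 1 library gave 295 to 607 higher and 359 to 585 lower.

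For the tests, a run with no filter on low counts gave 1 higher for the daf-2 RNAi interaction and 7 higher for the pitr-1 RNAi interaction, 543 higher and 369 lower for replicate 3 against 1, and 7 and 130 for replicate 4 against 2. DESeq2 gave 297 and 250 for replicate 3 against 1 and 8 and 30 for replicate 4 against 2. With exon length taken out replicate 3 against 1 gave 1 higher and 1 lower. Leaving out 1 library gave 0 to 5 higher and 0 to 1 lower for the pitr-1 RNAi interaction, 0 to 832 and 0 to 1127 for replicate 3 against 1, and 0 to 1 and 0 to 9 for replicate 4 against 2. With a replicate block, edgeR gave 0 calls in both interactions, as did the one without, and changed no call. The cause of these changes was not tested.

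Of 57 list medians, 6 of at least 0.25 in size changed sign under a setting. With exon length taken out, the median was 0.0632 for vitellogenins, 0.0735 for epidermal structure, -0.23 for ribosomal proteins and -0.00198 for the mitochondrial ribosome. Within empty vector it was -0.0276 for the list of genes raised by low insulin signalling and 0.25 for the intracellular pathogen response. Depth limits the rarer genes: with 6 libraries to a side and 5907286 counts in the shallowest, genes under about 1 CPM rest on a few reads.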
